A study of Mus musculus with 12 samples.

Results

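Wnt proteins are secreted, lipid-modified signals of the early embryo, and 10 of the 19 mouse genes that encode them are described here in embryonic stem cells (ESCs) with and without the *Meteor* enhancer. The 10 genes are *Wnt3*, *Wnt3a*, *Wnt5a*, *Wnt5b*, *Wnt8a*, *Wnt6*, *Wnt11*, *Wnt7b*, *Wnt4* and *Wnt2b*, out of 46517 genes listed in the count files. They were chosen by name with their levels in these same libraries known, and *Wnt3* was picked out because it was lower in knockout (KO) than in wild-type (WT) cells at both time points. The differences between KO and WT cells therefore stand below as a description of these 10 genes, without a test. All 10 exceeded 1 CPM (read counts scaled to the library total) in at least 1 library and so passed the filter for testing, but *Wnt2b* passed it only through WT cells at day 3 and *Wnt6* only through KO cells at day 0. A gene that passes in this way had to be high in that group, so its change with time in that genotype supports nothing by itself.

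A Wnt ligand is lipidated by *Porcn* and carried to the cell surface by *Wls*, and it binds Frizzled receptors. In the canonical branch, the co-receptors *Lrp5* and *Lrp6* pass the signal on, β-catenin is stabilised, and transcription factors of the TCF/LEF family switch on target genes. *Wnt3*, *Wnt3a* and *Wnt8a* are known as canonical ligands, whereas *Wnt5a*, *Wnt5b* and *Wnt11* are known mainly for β-catenin-independent signalling that steers cell movement. *Wnt3* is required in the mouse embryo for the primitive streak, the site where mesoderm and endoderm form.

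Polyadenylated RNA was sequenced in 12 libraries, 3 from each of 4 groups: ESCs at day 0 of either genotype, and cells of either genotype after 3 days of differentiation. All carried the *Eomes* EGFP reporter and were labelled with a C57BL/6 strain background. The ESCs were maintained on mouse embryonic fibroblast feeders in medium with serum and leukemia inhibitory factor (LIF). Day 3 cells were embryoid bodies, formed in hanging drops of a differentiation medium with serum and ascorbic acid, and were not sorted. LIF is not listed for that medium. KO cells descended from picked clones edited with a CRISPR-Cas9 nickase, and how many clones the KO libraries represent is not given in the sources used here. Replicates were separate samples in the labels, which do not say whether they came from separate cultures, so p-values measure the spread between these samples.

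Between 17455927 and 23910943 reads per library were counted on genes. ENSMUSG00000103968, a gene annotated upstream of *Eomes* at the *Meteor* locus, had 29 to 107 reads in every WT library and 0 in every KO library, which allows up to 3 reads each. *Upf3b*, a nonsense-mediated decay factor gene on another chromosome, was between 45.4 and 55.8 CPM in WT and at most 0.661 CPM in KO libraries. All 6 pluripotency markers listed had reads in each group, and their sum was 2613 to 3847 CPM at day 0 and 596 to 1186 CPM at day 3. Primitive streak markers, 6 of 6 detected in each group, summed to 840 to 1734 CPM in WT and 75.7 to 149.9 CPM in KO cells at day 3. In the same KO libraries 8 of the 10 ligands below were lower than in any WT library, as were 23.0% of all tested genes. *Wnt6* among them differed by few reads, and this contrast chose the ligands. The part of streak cells in these differences was not tested. The 10 feeder fibroblast markers, all detected in each group, summed to 86.6 to 277 CPM in WT and 137 to 380.3 CPM in KO cells at day 0, and to 52.0 to 122 CPM and 41.3 to 85.0 CPM at day 3. The 4 primed epiblast markers summed to 1614 to 1823 CPM in WT and 3003 to 3426 CPM in KO cells at day 3, and the 6 neuroectoderm markers to 2.19 to 3.56 CPM and 9.37 to 11.8 CPM. At day 0 both sums were lower in KO cells, with 488 to 808 CPM in WT and 279 to 369 CPM in KO for primed epiblast. The neuroectoderm sums at day 0 were 14.3 to 24.2 CPM and 7.82 to 13.1 CPM. *Pax6* made up most of the WT sum, with means of 16.2 CPM in WT and 5.28 CPM in KO cells. *Sox1* went the other way, with means of 1.88 CPM in WT and 4.50 CPM in KO cells and overlapping libraries. *Dnmt3b* made up most of the primed sum at day 3, whereas *Fgf5* had means of 111 CPM in WT and 58.5 CPM in KO cells. Visceral and primitive endoderm markers, 8 of 8 detected at day 3, reached 237 CPM in WT replicate 3 against 69.3 and 72.9 CPM in the other WT replicates, whereas trophoblast markers stayed at or below 8.66 CPM in sum, with no read of *Prl3d1* or *Tpbpa*. In these bulk samples fewer cells of a type and less RNA per cell cannot be told apart.

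Before the levels of the ligands, the windows upstream of their genes are shown, and the part of these letters in any change was not tested. RefSeq windows of 300 bases (250 before to 50 after the transcript start, GRCm38.p6) were at hand for 7 of the 10 genes, 10 windows in all. *Wnt5b* and *Wnt11* had more than 1 window, and *Wnt5a*, *Wnt7b* and *Wnt8a* had none. Each of the 10 was richer in G and C than the median of all 32851 windows (52.7%), from 53.0% to 86.3%. The letters GGGCGG or their reverse complement CCGCCC, known as the GC box, were in 9 of the 10 windows and in 35.7% of all windows. CTTTGAT or ATCAAAG, the core letters that TCF/LEF factors recognise, were in 2 of the 10, 1 each of *Wnt11* and *Wnt5b*, and in 3.73% of all windows, and GGTGTGA or TCACACC, a T-box core, were in 0 of the 10 and 3.98% of all windows. The *Wnt3* window held 2 GC boxes and none of the TCF/LEF letters. The 250 bases before the start are printed for *Wnt3*, the gene low in KO cells at both days, for *Wnt6*, which was higher in KO cells at day 0, and for *Wnt11*, which holds the TCF/LEF letters. Capitals mark GC boxes and, in *Wnt11*, the TCF/LEF letters ATCAAAG that directly follow the last GC box, and 2 GC boxes overlap in the run before it.
Wnt3, chr11:103773925-103774174, plus strand: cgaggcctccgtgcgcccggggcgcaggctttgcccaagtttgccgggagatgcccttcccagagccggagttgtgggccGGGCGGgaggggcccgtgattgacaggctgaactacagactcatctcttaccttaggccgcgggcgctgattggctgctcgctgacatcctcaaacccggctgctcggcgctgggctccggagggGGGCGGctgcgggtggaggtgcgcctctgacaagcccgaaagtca
Wnt6, chr1:74771642-74771891, plus strand: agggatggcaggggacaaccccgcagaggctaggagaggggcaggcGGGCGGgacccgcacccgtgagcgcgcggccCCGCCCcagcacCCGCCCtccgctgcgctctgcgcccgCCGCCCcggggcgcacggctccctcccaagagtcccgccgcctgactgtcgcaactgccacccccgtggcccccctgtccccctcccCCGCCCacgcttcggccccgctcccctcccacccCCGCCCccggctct
Wnt11, chr7:98834862-98835111, plus strand: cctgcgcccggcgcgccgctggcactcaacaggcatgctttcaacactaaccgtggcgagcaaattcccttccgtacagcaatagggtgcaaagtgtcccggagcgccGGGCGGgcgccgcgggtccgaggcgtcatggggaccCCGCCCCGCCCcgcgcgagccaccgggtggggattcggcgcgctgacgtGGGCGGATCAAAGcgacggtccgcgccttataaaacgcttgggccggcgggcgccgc

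*Wnt3*, the ligand of the primitive streak, was lower in every KO library than in any WT library at both days. The gene lies on the plus strand of chromosome 11 (GRCm38, chr11:103774150-103817957), 24.3 kb from *Wnt9b*, and no other annotated gene overlaps it. At day 0 the WT libraries had 1.91, 3.28 and 11.3 CPM in replicates 1 to 3, and the KO libraries had 0.504, 0.385 and 0.357 CPM. All 3 KO libraries were below all 3 WT libraries, with 7 to 9 reads each, and WT replicate 3 was the highest of the WT libraries. The fitted log2 fold change of KO against WT was -3.59 ± 0.68 (SE), or -2.59 without WT replicate 3, the library that also had 77.3 CPM of the streak gene *T* against 4.64 and 6.41 CPM in the other WT replicates. At day 3 *Wnt3* reached 65.6, 73.0 and 48.3 CPM in WT and 2.85, 1.36 and 2.91 CPM in KO cells. The groups again did not overlap, and the log2 fold change was -4.80 ± 0.54 (SE).

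From day 0 to day 3 *Wnt3* rose in both genotypes. The log2 fold change was 3.71 ± 0.51 (SE, adjusted p = 0.000225 in edgeR) in WT, from a mean of 5.51 ± 5.10 to 62.3 ± 12.7 CPM (SD, n = 3), and it was 4.61 without WT day 0 replicate 3. In KO cells it was 2.50 ± 0.72 (SE, adjusted p = 0.0131 in edgeR), from 0.415 ± 0.0778 to 2.37 ± 0.875 CPM (SD, n = 3). The libraries of KO cells at day 3 overlapped with those of WT cells at day 0, and the order of the means was WT day 3, WT day 0, KO day 3 and KO day 0. The rise in KO cells lost its call without KO day 0 replicate 3, with a log2 fold change of 2.14 (adjusted p = 0.0699 in edgeR).

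**Figure D1:**
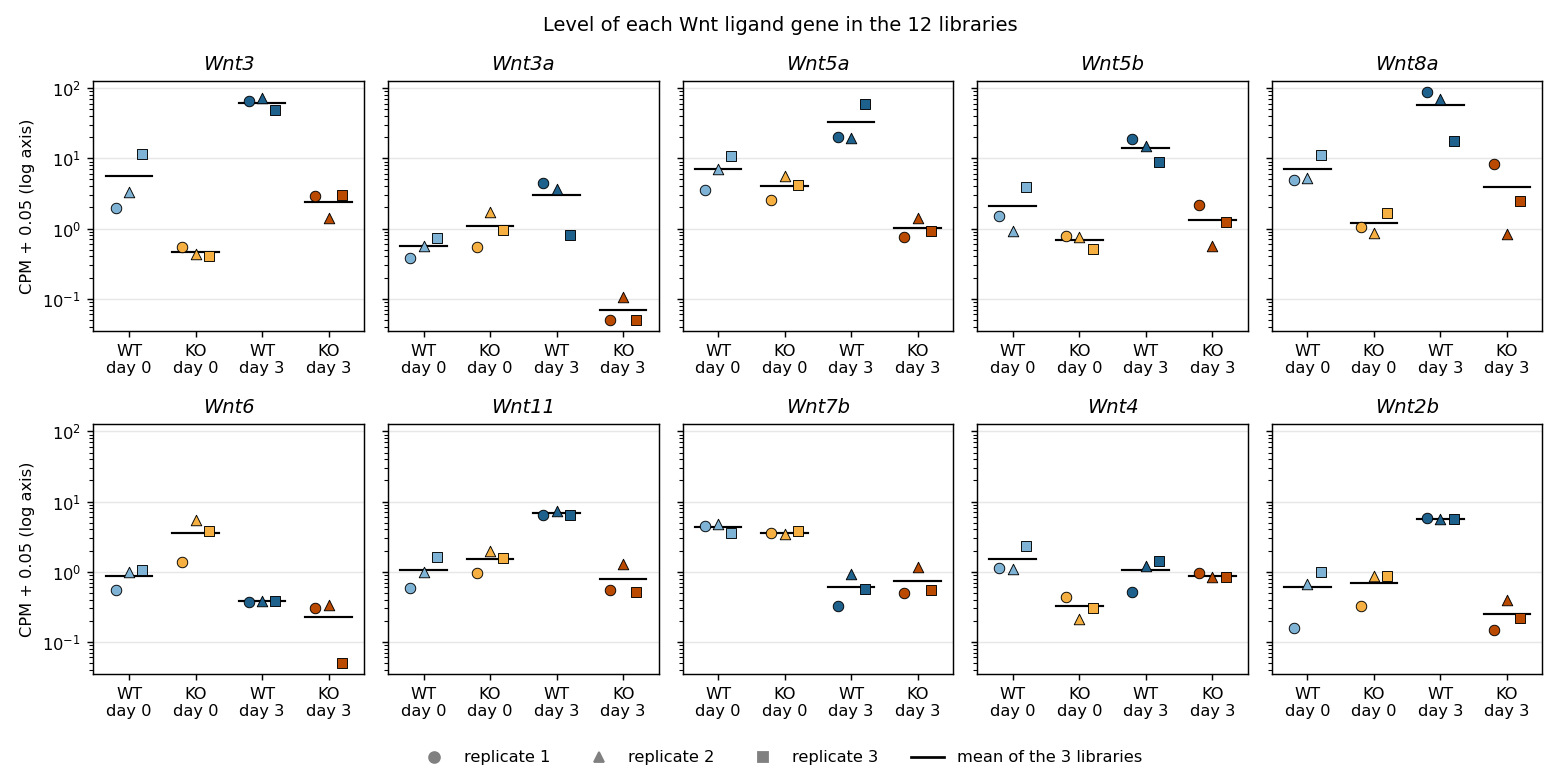
CPM after TMM scaling of each of the 10 ligand genes (log axis, 0.05 added so that libraries without a read can be drawn) in WT and KO cells at day 0 and day 3. Points are libraries, shaped by replicate number, and lines are group means. *Wnt3* is lower in all KO libraries at both days, and *Wnt7b* changes with the day in both genotypes.

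*Wnt8a*, a ligand gene of the gastrulating embryo, was the other abundant canonical ligand. WT libraries had 4.80, 5.16 and 11.1 CPM at day 0 and 87.0, 70.3 and 17.4 CPM at day 3. KO libraries had 1.01, 0.826 and 1.63 CPM at day 0 and 8.24, 0.795 and 2.45 CPM at day 3. KO libraries were below WT libraries at both days, and WT replicate 3 was the highest library at day 0 but the lowest WT library at day 3. The log2 fold change of KO against WT was -2.65 ± 0.82 (SE) at day 0, or -1.77 without WT replicate 3, and -4.07 ± 0.75 (SE) at day 3. The value at day 3 was -3.45 without WT replicate 2, -4.66 without WT replicate 3 and -5.15 without KO replicate 1 of that day. With time *Wnt8a* rose in WT by 2.95 ± 0.73 on the log2 scale (SE, adjusted p = 0.00649 in edgeR), by 3.65 without WT replicate 3 of either day and by 2.14 without WT day 3 replicate 2. In KO cells the difference between the days was 1.53 ± 0.85 (SE, adjusted p = 0.152 in edgeR), with overlapping libraries, and 0.54 without KO day 3 replicate 1. With the replicate number as a block within each day, that value was 1.58 and passed the test (adjusted p = 0.0446 in edgeR).

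*Wnt3a*, the close relative of *Wnt3*, which lies on the minus strand of the same chromosome (chr11:59248033-59290752), took another course. Its levels were 0.327, 0.521 and 0.686 CPM in WT and 0.504, 1.65 and 0.918 CPM in KO cells at day 0, and these overlapped. At day 3 WT libraries had 4.43, 3.61 and 0.761 CPM, with replicate 3 far below the others, and KO libraries had 0, 0.0568 and 0 CPM. Over the 3 libraries of each group, 186 reads in WT stood against 1 read in KO cells, a ratio of 181 with an exact 95% interval of 32.1 to 7201 that covers counting error only. *Wnt3a* rose with time in WT (log2 fold change 2.37 ± 0.65, SE, adjusted p = 0.0111 in edgeR) and fell in KO cells, from 57 reads to 1 read over the 3 libraries (adjusted p = 0.0021 in edgeR). The rise in WT missed the threshold when WT day 0 replicate 1, WT day 0 replicate 2 or WT day 3 replicate 1 was left out, with adjusted p = 0.0601, 0.0644 and 0.0516 in edgeR, and when only the 2 groups compared were fitted (adjusted p = 0.0566 in edgeR). It was 1.51 without that last library, 3.03 without WT day 0 replicate 3 and 3.04 without WT day 3 replicate 3.

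Among the β-catenin-independent ligands, *Wnt5a* (chr14:28504750-28527448, plus strand) rose in WT and fell in KO cells. At day 0 its levels were 3.49, 6.99 and 10.9 CPM in WT and 2.46, 5.51 and 4.18 CPM in KO cells. At day 3 they were 19.9, 19.2 and 59.7 CPM in WT and 0.699, 1.36 and 0.873 CPM in KO cells. The genotypes overlapped at day 0 and were apart at day 3, where WT replicate 3 was the highest WT library. KO against WT gave a log2 fold change of -0.73 ± 0.36 (SE) at day 0 and -4.99 ± 0.42 (SE) at day 3, or -4.55 at day 3 without WT day 3 replicate 3. With time the log2 fold change was 2.20 ± 0.35 (SE, adjusted p = 0.000511 in edgeR) in WT and -2.06 ± 0.42 (SE, adjusted p = 0.00206 in edgeR) in KO cells. The same WT replicate 3 had the highest sum of endoderm markers among the WT libraries of that day, 237 CPM, and of feeder markers, 122 CPM against 52.0 and 54.8 CPM, of which *Fbn1* alone made up 60.6 CPM against 15.9 and 18.9 CPM. The part of other cells in the level of *Wnt5a* was not tested. The predicted gene *Gm2670* overlaps *Wnt5a* on the other strand.

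*Wnt5b* (chr6:119432531-119544347, minus strand), whose annotated span overlaps *Fbxl14* on the other strand, was low in ESCs. It stood at 1.47, 0.886 and 3.80 CPM in WT and 0.728, 0.716 and 0.459 CPM in KO cells at day 0, and at 18.8, 15.1 and 8.80 CPM in WT and 2.15, 0.511 and 1.21 CPM in KO cells at day 3. KO libraries were below WT libraries at both days. The log2 fold change was -1.66 ± 0.62 (SE) at day 0, or -0.68 without WT replicate 3, and -3.55 ± 0.55 (SE) at day 3. *Wnt5b* rose with time in WT (2.84 ± 0.54, SE, adjusted p = 0.00149 in edgeR, or 3.77 without WT day 0 replicate 3), and in KO cells its log2 difference was 0.95 ± 0.63 (SE, adjusted p = 0.225 in edgeR).

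*Wnt11* (chr7:98835112-98855195, plus strand), a ligand of convergent extension movements, had 0.545, 0.938 and 1.58 CPM in WT and 0.896, 1.93 and 1.53 CPM in KO cells at day 0, with overlap. At day 3 it had 6.43, 7.41 and 6.33 CPM in WT and 0.499, 1.25 and 0.457 CPM in KO cells, and the lowest WT library was well above the highest KO library. The log2 fold change of KO against WT was 0.49 ± 0.40 (SE) at day 0 and -3.28 ± 0.39 (SE) at day 3. *Wnt11* rose with time in WT by 2.76 ± 0.38 on the log2 scale (SE, adjusted p = 0.000221 in edgeR). In KO cells the value was -1.01 ± 0.41 (SE, adjusted p = 0.0569 in edgeR), and it passed the test in 7 of 21 alternatives. Among these were the block within each day (-0.99, adjusted p = 0.0315 in edgeR), DESeq2 (adjusted p = 0.0435) and limma-voom (adjusted p = 0.0486).

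The remaining 4 ligands did not follow *Wnt3* at day 0, except *Wnt4*. *Wnt2b* (chr3:104945272-104961921, minus strand), a ligand gene of lateral mesoderm derivatives, had 0.109, 0.626 and 0.950 CPM in WT and 0.280, 0.826 and 0.816 CPM in KO cells at day 0. At day 3 it had 5.78, 5.58 and 5.57 CPM in WT and 0.0999, 0.341 and 0.166 CPM in KO cells. The WT libraries at day 3 were close to each other and every KO library was below them, with a log2 fold change of -4.91 ± 0.54 (SE). The rise in WT was 3.47 ± 0.48 (SE, adjusted p = 0.000218 in edgeR), in a gene that could be tested only because of those WT day 3 libraries, whereas *Wnt2b* fell in KO cells (log2 fold change -1.66 ± 0.61, SE, adjusted p = 0.0401 in edgeR), on 36 reads at day 0 and 12 at day 3. That fall missed the threshold in 8 of 19 alternatives, with adjusted p up to 0.201 without the replicates numbered 3. The predicted gene *Gm43846* overlaps *Wnt2b* on the same strand.

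*Wnt6* (chr1:74771892-74785322, plus strand), known from epithelia and extraembryonic endoderm, was the only one of the 10 with all KO libraries above all WT libraries at day 0. It had 0.491, 0.938 and 1.00 CPM in WT and 1.34, 5.40 and 3.72 CPM in KO cells, and KO replicate 1 was the lowest of the KO libraries. The log2 fold change was 2.01 ± 0.54 (SE). In the same 3 KO libraries the feeder markers summed to 137, 380.3 and 236 CPM and *Cubn*, an endoderm marker, had 4.98, 31.1 and 28.0 CPM, in the same order as *Wnt6*, and their part in its level was not tested. At day 3 it had 7 reads in every WT library and 5, 5 and 0 reads in KO libraries, so the groups did not overlap but differed by few reads (log2 fold change -0.98 ± 0.80, SE, or -1.75 without KO replicate 1 and -0.16 without KO replicate 3). With time *Wnt6* fell in KO cells (log2 fold change -4.23 ± 0.67, SE, adjusted p = 0.00043 in edgeR, or -3.45 without KO day 3 replicate 3 and -4.97 without KO day 3 replicate 1), although it could be tested only because of the KO day 0 libraries, and in WT the value was -1.24 ± 0.65 (SE, adjusted p = 0.129 in edgeR). Its neighbour *Wnt10a*, 6.19 kb away, had 0, 0.104 and 0.211 CPM in WT and 0.0560, 0.771 and 0.459 CPM in KO cells at day 0, and overlapped between the genotypes.

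*Wnt7b* (chr15:85535437-85582473, minus strand), a ligand gene of epithelia and of the neural lineage, had overlapping levels in the genotypes. It was at 4.42, 4.80 and 3.48 CPM in WT and 3.47, 3.41 and 3.72 CPM in KO cells at day 0, and 0.280, 0.866 and 0.523 CPM in WT and 0.449, 1.14 and 0.499 CPM in KO cells at day 3. At both days the log2 fold changes of KO against WT were small, -0.24 ± 0.31 at day 0 and 0.30 ± 0.40 at day 3 (SE). *Wnt7b* fell in both genotypes, with log2 fold changes of -2.97 ± 0.36 in WT (SE, adjusted p = 0.00011 in edgeR) and -2.43 ± 0.36 in KO cells (SE, adjusted p = 0.000259 in edgeR). *Wnt4* (chr4:137277489-137299726, plus strand), a ligand gene of kidney and gonad development, had 1.09, 1.04 and 2.27 CPM in WT and 0.392, 0.165 and 0.255 CPM in KO cells at day 0, and 0.466, 1.15 and 1.38 CPM in WT and 0.899, 0.795 and 0.790 CPM in KO cells at day 3. The genotypes were apart at day 0 (log2 fold change -2.36 ± 0.50, SE) and overlapped at day 3 (-0.22 ± 0.44, SE). In KO cells *Wnt4* rose with time by 1.60 ± 0.52 (SE, adjusted p = 0.0229 in edgeR), on 3 to 7 reads per library at day 0, but the call was lost in 5 of 19 alternatives, with KO day 0 replicate 2, KO day 0 replicate 3, KO day 3 replicate 1, KO day 3 replicate 2 or all replicates numbered 3 left out (adjusted p from 0.0590 to 0.102 in edgeR). In WT the value was -0.54 ± 0.42 (SE, adjusted p = 0.300 in edgeR).

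Set side by side at day 0, all 3 KO libraries were below all 3 WT libraries for *Wnt3*, *Wnt5b*, *Wnt8a* and *Wnt4* (4 of 10, where 17.4% of the 15673 tested genes showed this), above them for *Wnt6* (1 of 10, background 16.8%), and overlapping for the other 5. At day 3 they were below for 8 of 10 (background 23.0%) and above for 0 of 10 (background 20.8%), while *Wnt7b* and *Wnt4* overlapped. Because these contrasts chose the genes, nothing is read from the counts. *Wnt3*, *Wnt5b* and *Wnt8a* were the members below at both days.

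The difference between KO and WT cells, not the change with time, picked out *Wnt3*, but all 10 genes were chosen with their levels at both days known. The counts over time, beside the shares of all tested genes, therefore only describe these 10 genes. In WT cells 7 of the 10 ligands rose, against 30.7% of all tested genes, and 1 fell, against 25.5%. In KO cells 2 rose, *Wnt3* and *Wnt4*, against 29.4% of tested genes, and 5 fell, namely *Wnt3a*, *Wnt5a*, *Wnt6*, *Wnt7b* and *Wnt2b*, against 27.2%. Setting aside *Wnt2b* in WT and *Wnt6* in KO cells, which passed the filter only through the group where they were high, 6 of 9 rose in WT and 4 of 9 fell in KO cells. The median log2 fold change was 2.37 over the 9 kept in WT and -1.01 over the 9 kept in KO cells, which are not the same 9. Over all tested genes it was 0.07 and 0.03. *Wnt3* was called higher and *Wnt7b* lower in both genotypes. *Wnt3a*, *Wnt5a* and *Wnt2b* rose in WT and fell in KO cells. With the replicate number as a block within each day, 9 were called in KO cells, 3 higher and 6 lower, and 8 in WT, 7 higher and 1 lower. The shares of all tested genes above are those of the main fit, and none is given for other fits. Without KO day 0 replicate 3, 4 calls were made in KO cells in place of 7, and *Wnt3*, *Wnt4* and *Wnt2b* lost theirs (adjusted p = 0.0699, 0.102 and 0.112 in edgeR).

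**Figure D2:**
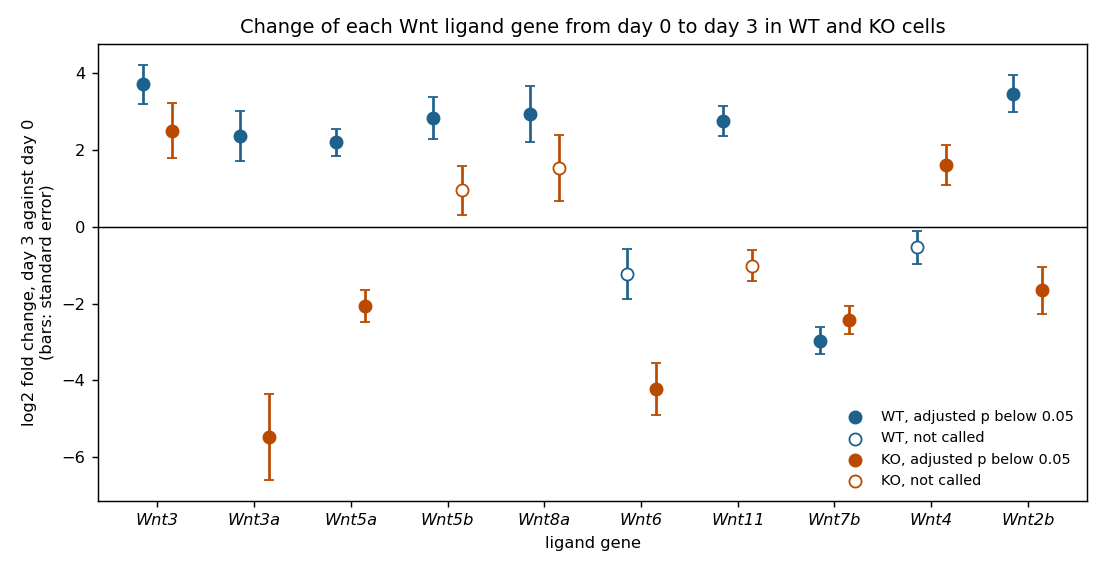
Log2 fold change of day 3 against day 0 for each ligand gene in WT (blue) and KO cells (orange), with standard errors as bars. Filled points had an adjusted p-value below 0.05 in edgeR. In WT 7 genes rise, and in KO cells *Wnt3* and *Wnt4* rise while 5 genes fall.

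Levels of different ligands were compared as CPM per kilobase of annotated exon. Summed over all 19 ligand genes, ESCs had 6.93, 8.27 and 16.3 CPM per kb in WT and 3.66, 7.36 and 6.03 CPM per kb in KO cells at day 0, and these overlapped. At day 3 the sums were 87.1, 79.6 and 43.6 CPM per kb in WT and 7.63, 3.56 and 4.30 CPM per kb in KO cells, so the WT libraries alone were above the day 0 range. *Wnt8a* and *Wnt3* had the highest means in WT at both days, of 4.02 and 1.79 CPM per kb at day 0 and 33.3 and 20.3 CPM per kb at day 3. The ranges of these 2 genes overlapped within each day. At day 0 the range of *Wnt3*, 0.621 to 3.69 CPM per kb with replicate 3 the highest, also overlapped those of *Wnt5a*, *Wnt7b*, *Wnt5b* and *Wnt9a*. At day 3 *Wnt5b* and *Wnt5a* followed with 5.36 and 4.21 CPM per kb, and overlapped with each other but not with *Wnt3*.

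The order differed in KO ESCs, where *Wnt6* led with a mean of 1.59 CPM per kb, ahead of *Wnt7b* (0.722), *Wnt8a* (0.662) and *Wnt5a* (0.518), all within overlapping ranges. *Wnt3* stood at rank 11 of 19 there, with 0.135 CPM per kb. Its share of all ligand transcripts per length was 8.95% to 22.6% in WT and 1.70% to 4.47% in KO cells at day 0. At day 3 it was 24.5% to 36.0% in WT and 12.1% to 22% in KO cells, where *Wnt3* stood at rank 2, behind *Wnt8a* and next to *Wnt9a*, with overlapping ranges. The 10 genes together held 87.0% to 94.5% of the ligand signal in WT ESCs and 62.4% to 93.2% in KO cells at day 3, in which *Wnt9a* took 5.11% to 29.3%.

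**Figure D3:**
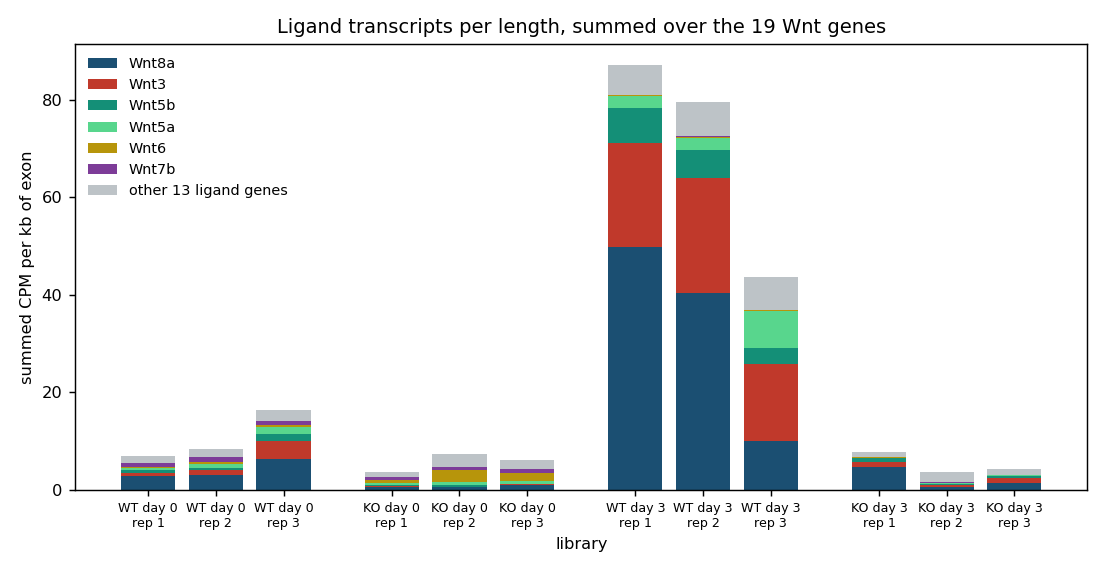
CPM per kb of exon summed over the 19 Wnt ligand genes in each of the 12 libraries, split by gene. Bars start at 0. WT day 3 libraries reach 43.6 to 87.1 CPM per kb, led by *Wnt8a* and *Wnt3* in replicates 1 and 2, and the other libraries stay at or below 16.3 CPM per kb.

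Of the 9 other ligand genes, 3 passed the filter, *Wnt2* and *Wnt9b* only through WT cells at day 3, so that their differences at that day support nothing by themselves. *Wnt2*, a ligand gene of the early cardiac and allantoic mesoderm, had 1.63, 1.3 and 3.90 CPM in WT and 0.0499, 0 and 0.0416 CPM in KO cells at day 3. That is 144 against 2 reads, a ratio of 70.2 with an exact 95% interval of 19.1 to 585 for counting error alone, and the difference passed the test (adjusted p = 0.000711 in edgeR). *Wnt9b*, the neighbour of *Wnt3*, had 1.54, 1.88 and 1.48 CPM in WT and 0.0499, 0.170 and 0.208 CPM in KO cells at day 3 (log2 fold change -3.61 ± 0.72, SE, adjusted p = 0.00472 in edgeR, or -4.55 without WT replicate 3 and -3.02 without WT replicate 1). At day 0 *Wnt9b* had reads in few libraries, with 0, 0.156 and 0.528 CPM in WT and 0, 0 and 0.102 CPM in KO cells. *Wnt9a*, the neighbour of *Wnt3a* at 16.2 kb, had 1.03, 3.70 and 2.66 CPM in WT and 1.3, 3.47 and 2.25 CPM in KO cells at day 3 and did not pass the test (-0.06 ± 0.42, SE, adjusted p = 0.934 in edgeR). *Wnt1*, *Wnt7a*, *Wnt8b*, *Wnt10a*, *Wnt10b* and *Wnt16* stayed at or below 0.771 CPM in every library and were not tested.

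The other 82 genes of the pathway, sorted by role, place the ligands among the parts they act with. They include the 9 ligands above, 70 of them passed the filter, and their lists were chosen with earlier results of these data known. At day 0, 21 of the 70 differed between KO and WT cells, 6 higher (9.56% of all tested genes were) and 15 lower (10.9%). At day 3, 36 differed, 10 higher (14.3%) and 26 lower (16.7%), and 4 of the lower ones, *Wnt2*, *Wnt9b*, *Cer1* and *Sost* (the last named after its values were seen), passed the filter only through WT cells at day 3. Without these, 32 of 66 differed, 10 higher and 22 lower, and the median log2 fold change was -0.18 against -0.0020 over all tested genes. With the block within each day the count was 37 at day 0, and 49 at day 3, 15 higher and 34 lower. The shares of all tested genes above are those of the main fit, so counts from other fits stand without a background. Without WT day 0 replicate 3 the count at day 0 was 10, and without KO day 0 replicate 2 it was 12.

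In the secretion machinery, 2 of 6 genes were lower (16.7% of all tested genes were) and 2 higher (14.3%) in KO cells at day 3. *Wls*, the carrier that all lipidated Wnts are thought to need, had 108, 80.9 and 134 CPM in WT and 30.8, 17.4 and 21.1 CPM in KO cells, a log2 fold change of -2.20 ± 0.23 (SE, adjusted p = 0.000195 in edgeR). *Porcn*, the acyltransferase, was lower too, with means of 20.0 ± 5.68 CPM in WT and 6.08 ± 1.96 CPM in KO cells (SD, n = 3; log2 fold change -1.71, adjusted p = 0.00109 in edgeR). The retromer genes *Vps26a* and *Vps29*, which recycle *Wls*, were higher by 0.62 and 0.39 on the log2 scale (adjusted p = 0.00107 and 0.0104 in edgeR), the latter not without the replicates numbered 3 (adjusted p = 0.135 in edgeR). At day 0 neither *Wls* nor *Porcn* passed the test (adjusted p = 0.0721 and 0.263 in edgeR).

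Of 16 receptors and co-receptors, 4 were lower (16.7% of all tested genes were) and 1 higher (14.3%) at day 3. *Ror2*, a receptor for Wnt5a, had 47.7, 50.5 and 32.3 CPM in WT and 14.8, 9.66 and 9.48 CPM in KO cells (log2 fold change -1.94 ± 0.22, SE, adjusted p = 0.000298 in edgeR). The Frizzled genes *Fzd10* and *Fzd1* were lower by log2 fold changes of -1.60 and -1.46 (adjusted p = 0.00611 and 0.000833 in edgeR), the former by -2.23 without KO replicate 1. *Lrp5* was higher by 0.37 (adjusted p = 0.0336 in edgeR), a call lost when any of WT replicate 1, WT replicate 3, KO replicate 2 or KO replicate 3 of day 3 was left out (adjusted p from 0.0677 to 0.135 in edgeR). *Fzd2* was lower in KO cells at day 0, with 17.1, 15.5 and 28.4 CPM in WT and 5.60, 5.45 and 6.84 CPM in KO cells (-1.76 ± 0.25, SE, adjusted p = 0.00149 in edgeR).

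R-spondins amplify the signal through Lgr receptors by removing the ubiquitin ligases *Znrf3* and *Rnf43*. Of the 9 genes of this module 7 were tested, and 3 were lower (background 16.7%) and 2 higher (background 14.3%) in KO cells at day 3. *Rspo3* had 34.6, 31.2 and 58.1 CPM in WT and 1.3, 0.114 and 0.665 CPM in KO cells (-5.90 ± 0.62, SE, adjusted p = 0.000202 in edgeR, or -7.04 without KO replicate 1). *Lgr5*, itself a Wnt target, was also lower (-5.63 ± 0.45, SE, adjusted p = 6.19e-05 in edgeR), as was *Znrf3* (-0.71, adjusted p = 0.00155 in edgeR). Higher were *Rspo1*, at 11.4 ± 0.862 against 4.39 ± 0.755 CPM (SD, n = 3; adjusted p = 0.000424 in edgeR), and *Lgr4* (log2 fold change 0.81, adjusted p = 0.00271 in edgeR). At day 0 *Lgr6* was higher in KO cells, with 3.47, 8.09 and 7.30 CPM against 1.91, 2.71 and 2.85 CPM (1.27 ± 0.25, SE, adjusted p = 0.00589 in edgeR), a call lost without the replicates numbered 3 (adjusted p = 0.0755 in edgeR).

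Extracellular inhibitors bind Wnts or their co-receptors. Of 18 genes 14 were tested, and 7 were lower (background 16.7%) and 1 was higher (background 14.3%) in KO cells at day 3. *Cer1* and *Sost*, among the 7, passed the filter only through WT cells at day 3, so they add no support to this count. *Cer1*, a Nodal, BMP and Wnt antagonist, had 111, 45.5 and 79.9 CPM in WT and 0.449, 0.568 and 0.250 CPM in KO cells (-7.53 ± 0.31, SE, adjusted p = 7.41e-07 in edgeR), and it was above the filter only in those WT libraries. *Dkk1*, the antagonist of Lrp6, had 29.4, 23.0 and 70.8 CPM against 0.350, 0.398 and 0.416 CPM (-6.65 ± 0.37, SE, adjusted p = 9.73e-06 in edgeR), and *Frzb* was lower by -5.99 ± 0.48 (SE, adjusted p = 6.19e-05 in edgeR). *Sfrp2* was higher, at 65.4, 64.1 and 59.0 CPM in KO against 21.6, 29.8 and 21.4 CPM in WT cells (1.36 ± 0.21, SE, adjusted p = 0.0013 in edgeR). At day 0 *Sfrp1* was higher, at 110, 110 and 138 CPM in KO against 48.7, 47.3 and 56.2 CPM in WT cells (1.22 ± 0.32, SE, adjusted p = 0.0243 in edgeR), a call lost without WT day 0 replicate 2, WT day 0 replicate 3, KO day 0 replicate 1 or KO day 0 replicate 2 (adjusted p from 0.0580 to 0.111 in edgeR) and with no replicate block (adjusted p = 0.0557 in edgeR).

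Of 17 intracellular transducers, 4 were higher (background 14.3%) and 2 lower (background 16.7%) in KO cells at day 3. *Lef1*, a nuclear partner of β-catenin and a Wnt target, was at 84.6, 94.2 and 89.0 CPM in WT and 20.1, 39.7 and 30.5 CPM in KO cells (-1.60 ± 0.40, SE, adjusted p = 0.0136 in edgeR), and *Pygo1*, a co-activator of the same complex, was lower by -1.29 (adjusted p = 0.0242 in edgeR). *Tcf7l1*, mainly a repressor of Wnt targets in ESCs, was higher at 158 ± 15.6 against 65.5 ± 11.1 CPM (SD, n = 3; 1.27 ± 0.13, SE, adjusted p = 0.00014 in edgeR). *Dvl1* and *Gsk3a* were higher by 0.51 and 0.27 on the log2 scale (adjusted p = 0.00564 and 0.0199 in edgeR). The calls of *Lef1*, *Pygo1* and *Gsk3a* were lost when single day 3 libraries were left out, with adjusted p up to 0.0760, 0.0996 and 0.0826 in edgeR. That of *Gsk3a* was also lost with no filter on low counts (adjusted p = 0.0746 in edgeR), and that of *Dvl1* without the replicates numbered 3 (adjusted p = 0.0660 in edgeR).

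Of 7 transcriptional response genes, which β-catenin and TCF/LEF activate, 5 were lower at day 0 (background 10.9%) and 6 at day 3 (background 16.7%). The medians were -1.69 and -4.51 on the log2 scale, and none was higher. *Sp5* had 4.42, 4.69 and 13.7 CPM in WT and 0.560, 0.496 and 0.714 CPM in KO cells at day 0 (-3.66 ± 0.76, SE, adjusted p = 0.00846 in edgeR, or -2.54 without WT replicate 3), and 55.0, 71.9 and 18.0 CPM against 0.749, 0.114 and 0.250 CPM at day 3 (-7.00 ± 0.81, SE, adjusted p = 0.000302 in edgeR, or -6.34 without WT replicate 2 and -8.06 without KO replicate 1). *T*, which also stands in the streak list, was lower at day 0 (-5.49 ± 1.43, SE, adjusted p = 0.0234 in edgeR) and at day 3 (-6.71 ± 1.13, SE, adjusted p = 0.00200 in edgeR, or -5.82 without WT replicate 2 and -8.49 without KO replicate 1). Its call at day 0 was lost without WT replicate 3, with -3.13 (adjusted p = 0.0639 in edgeR), and without any 1 of the KO replicates of that day (adjusted p from 0.0702 to 0.108 in edgeR), and with limma-voom the adjusted p was 0.147. *Cdx2*, a posterior homeobox gene, was at 4.38, 3.65 and 11.1 CPM in WT and 0.150, 0.227 and 0.250 CPM in KO cells at day 3 (-4.94 ± 0.67, SE, adjusted p = 0.000656 in edgeR, or -4.25 without KO replicate 3).

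**Figure D4:**
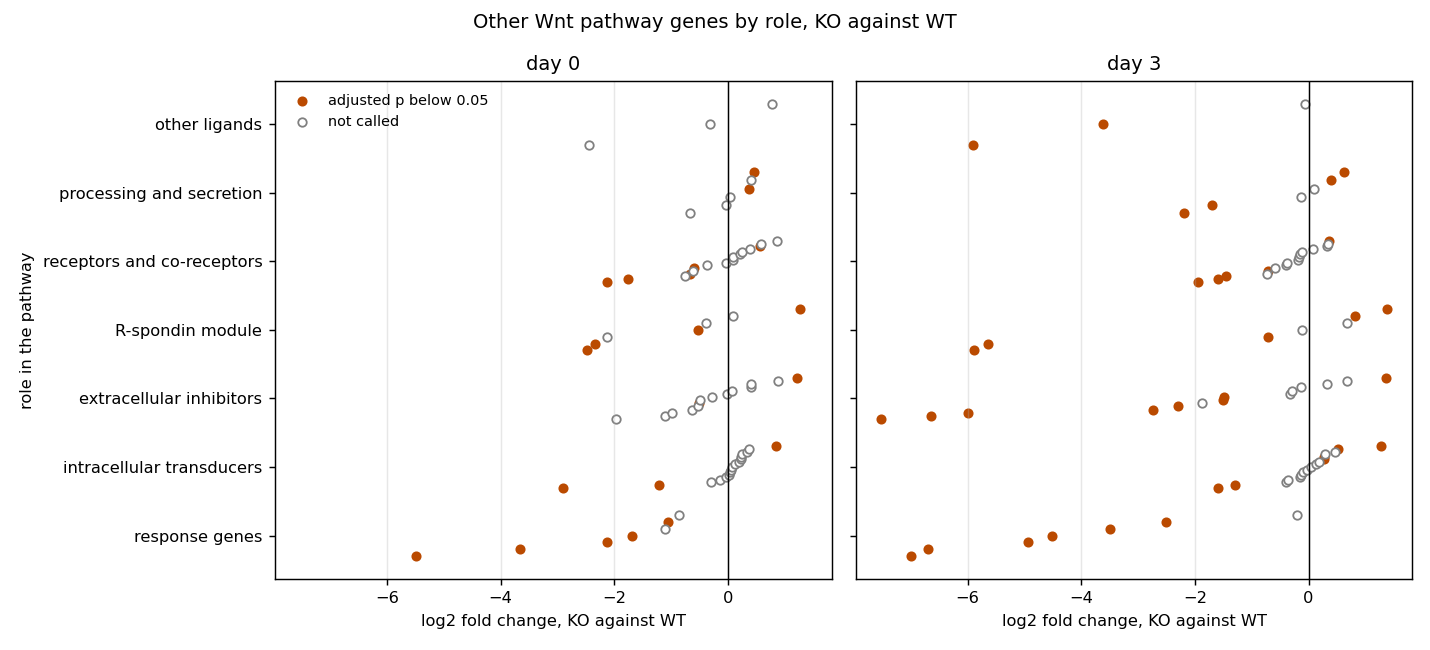
Log2 fold change of KO against WT at day 0 (left) and day 3 (right) for the 70 tested pathway genes other than the 10 ligands, one point per gene, grouped by role. Filled points had an adjusted p-value below 0.05 in edgeR. Response genes and several inhibitors lie far to the left at day 3, down to -7.53 for *Cer1*. *Cer1* passed the filter only through WT cells at that day.

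The KO effect itself differed between the days for 20 of the 70 genes, 6 with a higher and 14 with a lower value at day 3, where 15.5% of all tested genes differed in either direction. Without the 4 genes that passed the filter only through WT cells at day 3, 19 of 66 differed, 6 higher and 13 lower. The strongest shifts down were those of *Wnt2* and *Dkk1* (-6.68 ± 1.23 and -6.17 ± 0.54, SE, adjusted p = 0.00655 and 0.000301 in edgeR), and the strongest shifts up those of *Sfrp2* and *Fzd2* (1.99 ± 0.31 and 1.36 ± 0.34, SE, adjusted p = 0.00305 and 0.0235 in edgeR). *Wnt2* is one of the genes that passed the filter only through WT cells at day 3, so its shift supports nothing by itself. With the block within each day 31 genes passed, and without KO day 0 replicate 2 the count was 13. No share of all tested genes is given for these fits. The call of *Fzd2* was lost without KO replicate 1 or KO replicate 2 of either day (adjusted p from 0.0570 to 0.0688 in edgeR), and those of *Wnt2* and *Sfrp2* without the replicates numbered 3 (adjusted p = 0.141 and 0.0734 in edgeR), when 7 genes passed.

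The genes whose levels most resembled those of *Wnt3* over the 12 libraries were *Rtl8c*, *Fgf8*, *Nkx1-2*, *Alox15* and *Cdh2*. Likeness was the root-mean-square difference of log2 CPM after subtracting each gene's mean, which was 0.58, 0.63, 0.69, 0.74 and 0.80 for these 5 and 2.57 for the median tested gene. *Fgf8*, a growth factor of the streak, had a mean of 8.12 ± 9.11 CPM in WT and 0.268 ± 0.0415 CPM in KO cells at day 0, and of 92.1 ± 43.3 and 4.75 ± 3.80 CPM at day 3 (SD, n = 3). *Cdh2*, the mesenchymal cadherin, had 26.1 ± 20.5 and 5.43 ± 1.41 CPM at day 0 and 163.9 ± 24.7 and 12.3 ± 1.36 CPM at day 3 (SD, n = 3). *Rtl8c* has near-identical copies on its chromosome, so its counts are uncertain. Among the Wnt pathway, *Lgr5* (0.81), *Rspo3* (0.91) and *Wnt8a* (0.93) came next, at ranks 6, 12 and 13 of all tested genes, and *Wnt5b* was at rank 29, whereas *Wnt7b* and *Wnt6* were at ranks 15023 and 15078. For the other members, the nearest gene was *Nt5e* for *Wnt3a*, *Plxna4* for *Wnt5a*, *Pcdh8* for *Wnt5b*, *Mab21l2* for *Wnt8a*, *Robo4* for *Wnt6*, *Chrd* for *Wnt11*, *Mybpc1* for *Wnt7b*, *Sv2c* for *Wnt4* and *Gata6* for *Wnt2b*.

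**Figure D5:**
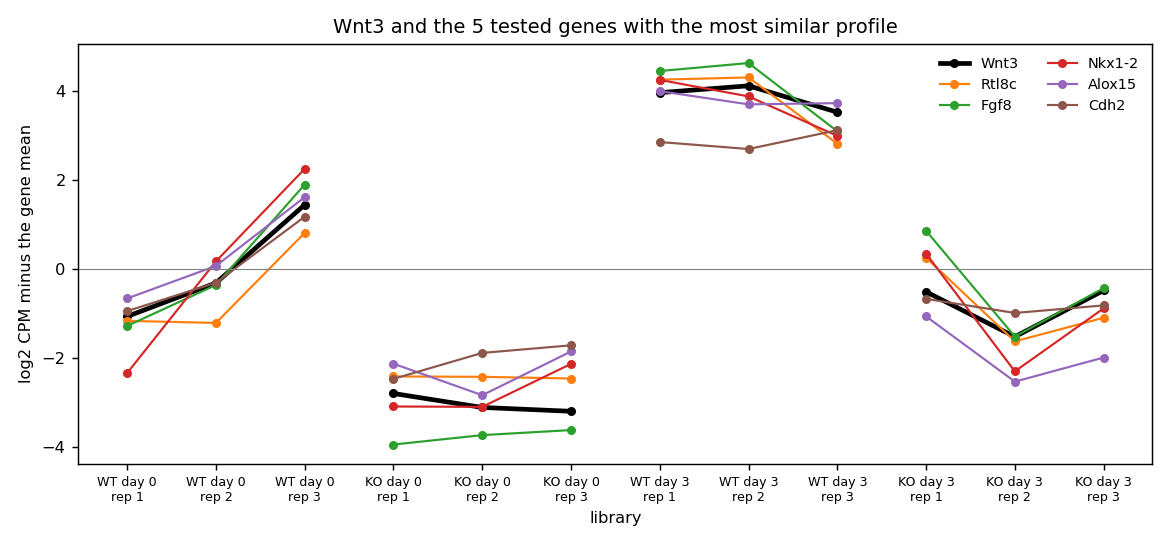
Log2 CPM minus the mean of each gene over the 12 libraries, for *Wnt3* (thick black line) and the 5 tested genes nearest to it. Lines join the libraries of a group and carry no order. All 6 genes are highest in the WT day 3 libraries and have their lowest group mean CPM in KO cells at day 0, and in WT cells at day 0 all are highest in replicate 3.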

How the data were processed

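RNA-Seq libraries from 12 samples in 4 groups of 3 were analysed. The deposited values are raw read counts per gene. The authors made them by trimming with Cutadapt 1.3, aligning to GRCm38 with STAR 2.4.2a and counting on Ensembl genes with HTSeq 0.6.1, per the labels. Whether counting used strand is not given in the sources used here, so reads of genes that overlap on opposite strands cannot be told apart. The labels and the methods name different RNA kits and sequencers.

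The members and all gene lists were chosen with earlier results of these data known. Symbols, exon lengths and coordinates came from GENCODE (GRCm38) by Ensembl ID, and promoter windows from RefSeq. The 15673 genes above 1 CPM in at least 1 sample were tested in edgeR 4.0.16 (R 4.3.3), by its quasi-likelihood F test after TMM normalization. All 12 libraries entered 1 fit with 4 groups and a block for the replicate number, since the study's model had a factor for batch. Benjamini-Hochberg adjustment ran over all tested genes, and genes below 0.05 were called, with no minimum fold change. CPM values are TMM-scaled, and log2 CPM used a prior count of 2. Standard errors were the fold change over the root of F. Intervals at 95% are Clopper-Pearson intervals of pooled counts. Depth limits the precision of genes with few reads.

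Named besides the members were the 9 other ligands, per role list at most the 3 highest and 3 lowest genes called at day 3, over all lists the 2 highest and 2 lowest called at day 0 and in the difference between days, the 5 genes nearest to *Wnt3* and 1 nearest gene for every other member.

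Replicate numbers in the labels were checked for pairing over 12659 genes. Deviations from the group means of WT and KO libraries that shared a day and a number correlated at 0.327 to 0.703 in 6 pairs, and those of a shared genotype and number across the days at -0.223 to 0.0722. The numbers therefore paired samples within a day. The main fit, which gave the p-values not marked otherwise, instead shared its block between the days. A block within each day was also fitted. It gave 37 calls in place of 21 among the other pathway genes at day 0, and no share of all tested genes is given for it. Replicates differed by more than sampling noise (chi-square per gene 11.9 to 55.8). Alternatives were DESeq2 1.42.0 without independent filtering or Cook's cutoff, limma-voom 3.58.1, RLE normalization, no filter, at least 10 counts in every sample, only the 2 groups compared, no block, and leaving out each library or every replicate numbered 3. The fits were tested on simulated data. Python 3.11.15 and matplotlib 3.10.9 made tables and figures.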

Additional observations from a re-analysis of the deposited data

Results flagged for a closer look

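The KO effect differed between the days by its own test in edgeR for 4 named genes. The value at day 3 minus that at day 0 was -6.68 on the log2 scale for *Wnt2* (adjusted p = 0.00655 in edgeR), -6.17 for *Dkk1* (adjusted p = 0.000301 in edgeR), 1.99 for *Sfrp2* (adjusted p = 0.00305 in edgeR) and 1.36 for *Fzd2* (adjusted p = 0.0235 in edgeR). *Wnt2* rests on 8 and 14 reads in WT and KO cells at day 0 and on 144 and 2 reads at day 3. It passed the filter only through WT cells at day 3, so its difference between the days supports nothing by itself. The calls of *Wnt2* and *Sfrp2* were lost without the replicates numbered 3 (adjusted p = 0.141 and 0.0734 in edgeR), and that of *Fzd2* without KO replicate 1 or 2 of either day (adjusted p from 0.0570 to 0.0688 in edgeR).

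With time, 2 ligands went opposite ways in the genotypes, with every day 3 library above every day 0 library in WT and below in KO cells. *Wnt3a* had a log2 fold change of 2.37 in WT and -5.48 in KO cells, the latter from 57 reads to 1 read. *Wnt5a* had 2.20 in WT and -2.06 in KO cells. The difference between the genotypes was not tested for these 2 genes, because it is part of what chose them.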

How the results depend on the processing

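*Wnt3* kept its direction in KO against WT cells in all 20 alternatives that could give a value, from -4.11 to -2.53 on the log2 scale at day 0 and from -5.26 to -4.42 at day 3. Requiring 10 counts in every sample left *Wnt5a*, *Wnt8a* and *Wnt11* to test, of which 3 were called over time in WT and 2 in KO cells, and left 53 other pathway genes, of which 23 differed at day 3. With the replicate block within each day, 9 members were called over time in KO cells and 8 in WT. In that fit 37 pathway genes differed at day 0 (38 with only the 2 groups compared) and 31 in the difference between days, and without any block 17, 35 and 17 differed at day 0, at day 3 and in that difference. No share of all tested genes is given for these alternatives, so their counts are not set against a background. Leaving out libraries gave 7 to 9 member calls in WT and 4 to 8 in KO cells over time, and 7 to 24 pathway calls at day 0, 28 to 38 at day 3 and 7 to 21 in the difference, the lowest of the last and of day 0 without the replicates numbered 3. Small KO against WT values changed sign when libraries were left out: *Wnt7b* ranged from -0.41 to 0.022 at day 0 and from -0.071 to 0.59 at day 3, *Wnt4* from -0.62 to 0.10 at day 3, *Wnt2b* from -0.17 to 0.81 at day 0 and *Wnt9a* from -0.38 to 0.19 at day 3. The causes were not tested. Genes with under 10 reads per library have wide errors.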
